A study of Mus musculus with 6 samples.

Results

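Messenger RNA of the genes that make, regulate and move cholesterol was compared in iWAT, the inguinal white fat pad that lies under the skin of the mouse groin, between mice with and without the transcription factor gene Atf4 in adipocytes. The genes were chosen by name from the pathway, 31 of the 23997 symbols in the deposited table, and comprise 20 synthesis genes, 4 regulators and 7 genes of uptake, storage and efflux. Every one of the 31 had a row, and 30 passed the filter on low values, a mean of at least 0.5 FPKM (fragments per kilobase of transcript per 1e+06 mapped fragments) over the 6 libraries.

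The 3 Atf4AKO libraries came from mice with a floxed Atf4 gene and the AdipoqCre transgene, in which the adiponectin promoter drives Cre in adipocytes. The 3 Atf4WT libraries came from floxed mice lacking Cre, so Cre itself and loss of Atf4 cannot be told apart. Both genotypes lived at 22 °C and then spent 12 h at 5 °C, which means that the comparison is of genotypes in the cold and holds no cold response. The labels give no age, sex or strain and do not say whether a library is 1 animal or a pool, so a p-value here speaks only of the spread among these 6 libraries. The tissue is the whole pad, in which fewer cells of a type and less RNA per cell cannot be told apart.

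Cholesterol is built from acetyl-CoA in the cytosol and endoplasmic reticulum. The early enzymes make mevalonate and turn it into isoprenoids, squalene synthase and squalene epoxidase commit the chain to sterols, and a run of late enzymes trims lanosterol to cholesterol. When sterols are scarce, SCAP carries the membrane-bound factor SREBP-2 out of the endoplasmic reticulum for cleavage, and the cleaved factor, which binds beside NF-Y at many promoters, raises the synthesis genes together. When sterols are plentiful, INSIG proteins hold SCAP back, while LXR factors raise the exporters ABCA1 and ABCG1. Adipocytes make little cholesterol for their size and hold a large store of it in the lipid droplet.

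The promoters of 3 of the 4 synthesis genes whose groups did not overlap are shown, since SREBP-2 acts on this family through short sites near the start. Each is the stretch of 250 bases before the annotated start, 5′ to 3′ on the strand of the gene, from RefSeq on GRCm38.p6, and capitals mark the sterol regulatory element core (TCACNCCAC) and the NF-Y box (CCAAT, or ATTGG on the other strand). Hmgcs1 lies at chr13:119690101-119690350 on the plus strand, Msmo1 at chr8:64733579-64733828 and Sc5d at chr9:42264301-42264550, both on the minus strand. Lss, the other such gene, is not printed because the end of its window lies within the gene as GENCODE annotates it.
Hmgcs1: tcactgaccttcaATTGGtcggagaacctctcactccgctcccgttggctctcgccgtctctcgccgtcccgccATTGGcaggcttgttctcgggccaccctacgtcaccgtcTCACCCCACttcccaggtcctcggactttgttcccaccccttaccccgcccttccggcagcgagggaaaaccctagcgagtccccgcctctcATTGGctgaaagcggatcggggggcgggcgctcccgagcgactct
Msmo1: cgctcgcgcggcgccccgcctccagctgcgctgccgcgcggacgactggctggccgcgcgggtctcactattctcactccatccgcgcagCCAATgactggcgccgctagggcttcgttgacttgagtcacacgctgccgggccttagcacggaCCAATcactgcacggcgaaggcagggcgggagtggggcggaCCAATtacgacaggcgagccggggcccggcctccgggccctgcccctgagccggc
Sc5d: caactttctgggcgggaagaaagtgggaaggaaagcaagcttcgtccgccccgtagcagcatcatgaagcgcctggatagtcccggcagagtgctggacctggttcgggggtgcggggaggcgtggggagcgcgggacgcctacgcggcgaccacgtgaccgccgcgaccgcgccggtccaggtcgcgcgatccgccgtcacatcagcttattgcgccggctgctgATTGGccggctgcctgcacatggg

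Hmgcs1 was the 1 gene of the 25 with a promoter in the table that held the sterol element core, at 137 to 129 bases before its start. Its promoter also had 3 NF-Y boxes, that of Msmo1 had 3 and that of Sc5d had 1. Searched on both strands, the NF-Y box stood in the promoters of 16 of 17 synthesis genes and 21 of 25 members, against 40.1% of the 9611 tested genes in the table. The sterol element core stood in 1.22% of those genes. The C/EBP-ATF element (TGATGNAAT), the kind of site that ATF4 binds with C/EBP partners, matched in 0 of the 25 promoters and in 0.520% of the tested genes. These are matches of letters within 250 bases, not measured binding. The sterol element core and the C/EBP-ATF element are so rare that 0 or 1 match in 25 promoters does not set the members apart. Abcg1, Fdft1, Fdps, Npc1, Sqle and Stard4 were not in the table.

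The targeted gene went with the labels. Atf4 was at 258, 323 and 317 FPKM in Atf4WT 1, 2 and 3 and at 152, 140.2 and 114 FPKM in Atf4AKO 1, 2 and 3, which is a change of -1.14 on the log2 scale (SE 0.16, limma adjusted p = 0.490, exact permutation p = 0.1). By design Atf4 is not targeted in cells other than adipocytes, and the source of the remaining Atf4 RNA was not tested. Adipocyte markers summed to between 58551 and 81318 FPKM in Atf4WT and between 68549 and 105244 FPKM in Atf4AKO, and all 15 were detected in every library, which fits the labelled tissue.

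Other tissues stood out in some libraries. The 15 skeletal muscle markers summed to 987 FPKM in Atf4WT 2, 3370 in Atf4AKO 1 and 9436 in Atf4AKO 2, but to between 20.8 and 31.2 FPKM in the other 3 libraries, and Myh1, Myh2 and Actn3 were listed at 0 in at least 1 library. The 14 macrophage markers summed to between 288 and 672 FPKM in Atf4WT and to 2993, 1109 and 571 FPKM in Atf4AKO 1, 2 and 3. Of these 14 of 14 had a positive change, as had 12 of 12 fibroblast markers and the 14 tested muscle markers. The 16 mammary and skin epithelial markers summed to 1435, 277 and 2.18 FPKM in Atf4WT 1, 2 and 3. In Atf4AKO 1, 2 and 3 they summed to 2.52, 10.4 and 274 FPKM. Of them 15 had a negative and 1 a positive change, and 9 (Krt5, Krt14, Krt8, Krt7, Krt15, Cldn4, Cldn7, Csn3 and Wfdc18) were listed at 0 in at least 1 library. Atf4AKO 3 was therefore the 1 knockout library nearly free of muscle transcripts, and its values are set apart below where they differ.

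The synthesis genes did not share a direction. Of 20 tested, 11 were positive and 9 negative in log2 change (Atf4AKO minus Atf4WT, on log2(FPKM + 1)), with a median of 0.06 against 0.005 over all 12818 tested genes. With all libraries scaled to equal sums, which shifts the median of all genes to -0.12, Lbr, Ebp and Dhcr7 turned negative as well and the synthesis median was -0.061. Hmgcs1, Lss, Msmo1 and Sc5d lay lower in every Atf4AKO library than in any Atf4WT library, and Acat2, Cyp51 and Sqle were lower on average. Fdps, Nsdhl, Fdft1, Mvd, Mvk, Pmvk and Hsd17b7 were higher on average. No member passed the limma test with Benjamini-Hochberg adjustment over all genes, 0 of 30 against 0.0156% (2 genes) of all tested, and adjusted p-values ran from 0.50 to 0.989.

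Short of that threshold, 5 of the 30 tested members (16.7%) lay without overlap below Atf4WT, against 8.34% of all genes, and 0 lay without overlap above it, against 8.21%. At an unadjusted limma p under 0.05 the counts were 5 lower (16.7%, against 4.91% of all genes) and 2 higher (6.67%, against 5.04%). The 5 lower by p were Acat2, Hmgcs1, Cyp51, Msmo1 and Sc5d, and the 2 higher were Fdps and Nsdhl. These counts rested on few libraries: by p, 9 were lower and 4 higher without Atf4AKO 3, 2 were lower and 0 higher without Atf4AKO 2, and 3 were lower without Atf4AKO 1 or any 1 Atf4WT library, with 0 higher without Atf4WT 1 or 3. The shares of all genes moved with these settings: without Atf4AKO 3, 9.24% were lower and 11.1% higher by p, and without Atf4AKO 2, 1.66% and 2.24%. Without Atf4AKO 1 they were 2.64% and 3.43%. Without Atf4WT 1, 2 and 3 in turn, 3.68%, 3.83% and 3.30% of all genes were lower and 3.75%, 3.96% and 2.58% higher. Without Atf4AKO 3, 9 members lay without overlap below and 6 above, against 20.6% and 20.7% of all genes. At equal sums 7 members were lower and 1 higher by p, against 7.997% and 2.27% of all genes. Without the 3 libraries that held muscle markers, a setting chosen after seeing the data, 0 members were lower and 0 higher by p, against 0.435% and 0.609% of all genes.

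**Figure D1:**
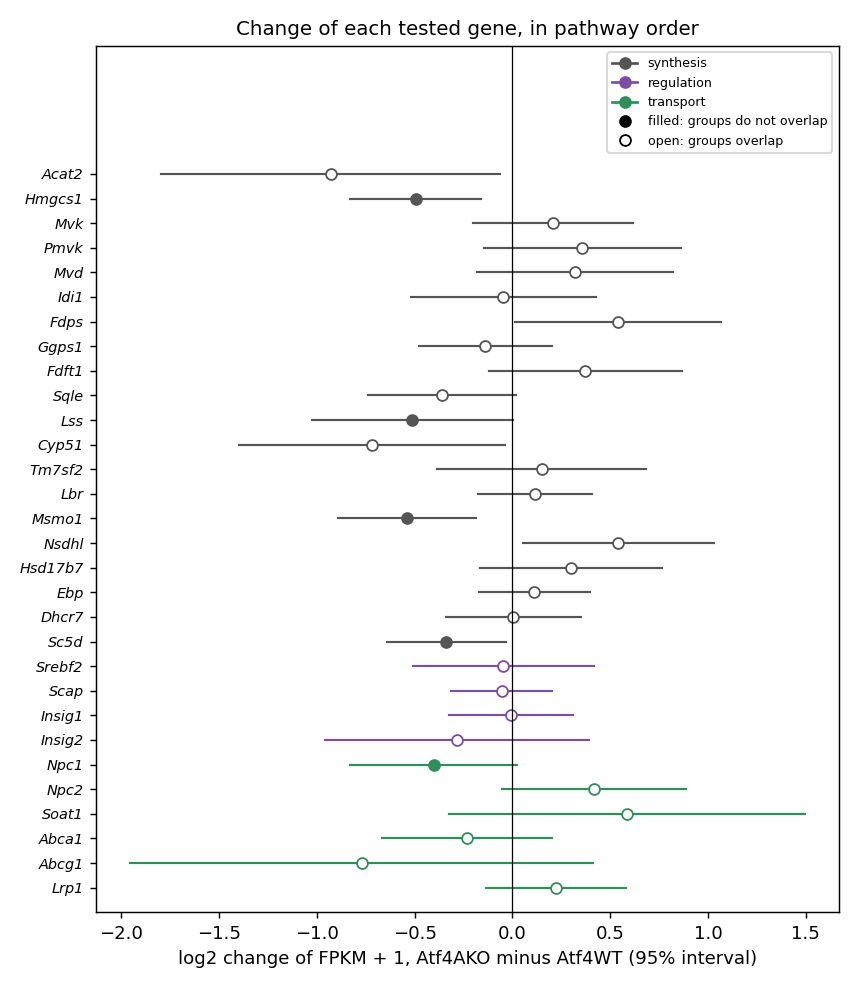
Log2 change of log2(FPKM + 1), Atf4AKO minus Atf4WT, with its 95% interval (limma, n = 3 a group) for the 30 tested genes in pathway order; filled points mark genes whose groups do not overlap. Negative changes stand at the entry (Acat2, Hmgcs1) and among the late sterol steps (Sqle to Cyp51, Msmo1, Sc5d), with both signs between them (positive at Mvk, Pmvk, Mvd, Fdps and Fdft1, negative at Idi1 and Ggps1) and positive ones at Nsdhl and Hsd17b7.

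At the entry of the pathway, both enzymes that build HMG-CoA were at lower values in Atf4AKO. Hmgcs1, the cytosolic HMG-CoA synthase, was at 25.3, 22.9 and 24.9 FPKM in Atf4WT 1, 2 and 3 and at 15.3, 15.6 and 20.5 FPKM in Atf4AKO 1, 2 and 3. The groups did not overlap, and Atf4AKO 3 lay nearest to Atf4WT. The mean was 1.42 times as high in Atf4WT, with a log2 change of -0.49 (SE 0.14, 95% interval -0.83 to -0.16). Its limma adjusted p was 0.50, and an exact permutation test (two-sided) gave p = 0.1, the lowest possible with 3 against 3 libraries. Acat2, the cytosolic thiolase that makes acetoacetyl-CoA, was at 21.4, 20.1 and 39.4 FPKM in Atf4WT, against 10.9, 9.50 and 21.1 in Atf4AKO. Here Atf4AKO 3 lay inside the Atf4WT range, and the log2 change of -0.93 (SE 0.36), the most negative of the 30, came from Atf4AKO 1 and 2 and from the high value of Atf4WT 3. Hmgcs1 lies on chromosome 13 from 119690351 to 119708260 (GRCm38), and 12.1% of its exon bases have the antisense gene Gm48342 on the other strand.

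Of the 6 mevalonate and isoprenoid enzymes that follow, Mvk, Pmvk, Mvd and Fdps had positive and Idi1 and Ggps1 negative changes. Fdps, farnesyl diphosphate synthase, was at 5.24, 7.73 and 5.46 FPKM in Atf4WT, against 10.7, 10.96 and 6.77 in Atf4AKO. Its highest values were those of Atf4AKO 1, Atf4AKO 2 and Atf4WT 2, the 3 libraries with muscle markers, and the part of muscle in this was not tested. The log2 change was 0.54 (SE 0.22; adjusted p by limma 0.50), and it was 0.29 without those 3 libraries and 0.28 with the muscle marker level as a covariate. Of the exon bases of Fdps, 26.7% are shared in GENCODE with the annotated gene Gm43738 on the same strand, so its reads may not all be its own. Mvk, mevalonate kinase, was at 2.503 ± 0.199 FPKM in Atf4WT, against 3.09 ± 0.838 in Atf4AKO, and Mvd, the decarboxylase that makes isopentenyl diphosphate, was at 1.34 ± 0.251 and 1.97 ± 0.766 FPKM (mean ± SD, n = 3 each). Both reached their highest value in Atf4AKO 1, at 4.03 and 2.85 FPKM, and the groups overlapped. Their log2 changes, 0.21 (SE 0.17) and 0.32 (SE 0.21), were 0.049 and 0.12 without that library.

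Pmvk, phosphomevalonate kinase, had by far the highest level of the pathway, at 662, 516 and 685 FPKM in Atf4WT, against 731, 1015 and 664 in Atf4AKO. The next synthesis gene by level, Cyp51, reached 45.9 FPKM at most. FPKM is per length, so these levels can be set side by side, although they depend on the transcript models used. Pmvk differed by 0.36 (log2, SE 0.21, limma adjusted p = 0.540), and Atf4AKO 1 and 2 lay above every Atf4WT library while Atf4AKO 3 did not. The change was 0.18 without Atf4AKO 2 and 0.23 without Atf4WT 2. It was 0.11 with Atf4AKO 3 as the only knockout library, and -0.02 without the 3 libraries that held muscle markers. Idi1, the isopentenyl diphosphate isomerase, and Ggps1, which makes the geranylgeranyl chains of prenylated proteins, had changes of -0.05 (SE 0.20) and -0.14 (SE 0.14) with overlapping groups. Their 95% intervals, -0.52 to 0.43 and -0.48 to 0.20, leave room for moderate differences either way.

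**Figure D2:**
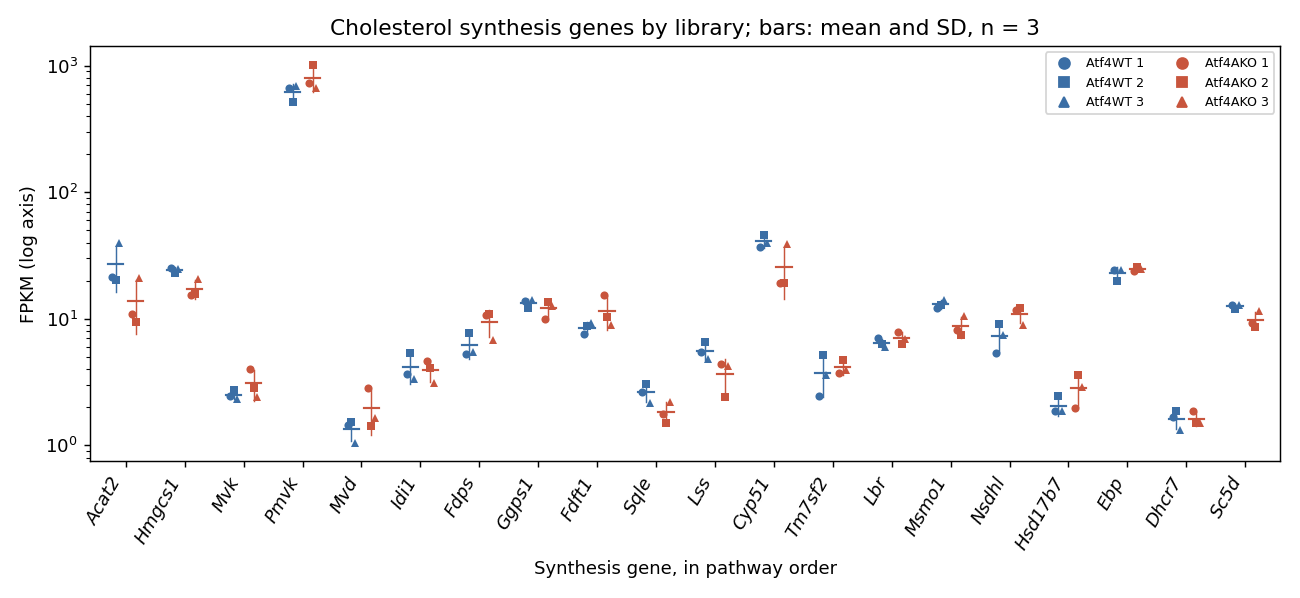
FPKM (log axis) of the 20 synthesis genes in pathway order in each library, with mean and SD (n = 3 a group); marker shapes give the replicate number. Hmgcs1, Lss, Msmo1 and Sc5d show 3 Atf4AKO points below all Atf4WT points, and Pmvk lies at 516 FPKM or more in every library.

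Squalene synthase and squalene epoxidase, the branch point to sterols, had changes of opposite sign. Fdft1, the synthase, was at 7.53, 8.76 and 9.28 FPKM in Atf4WT, against 15.5, 10.3 and 8.91 in Atf4AKO, a log2 change of 0.37 (SE 0.21; adjusted p by limma 0.531). Atf4AKO 1, with the most macrophage transcripts, was the highest, and the change was 0.16 without it. With the macrophage, muscle or epithelial marker level as a covariate the change was 0.084, 0.25 or 0.23. Of the Fdft1 exon bases, 18.3% overlap Ctsb, a lysosomal protease gene on the other strand. What part other cells or the overlap had in the Fdft1 values was not tested. Sqle, the epoxidase, was at 2.65, 3.04 and 2.17 FPKM in Atf4WT, against 1.76, 1.49 and 2.22 in Atf4AKO. Its log2 change was -0.36 (SE 0.16; adjusted p by limma 0.503), with Atf4AKO 3 just above the lowest Atf4WT library.

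Along the lanosterol steps Lss, Cyp51, Msmo1 and Sc5d were at lower values in Atf4AKO. Lss, lanosterol synthase, was at 5.44, 6.51 and 4.77 FPKM in Atf4WT, against 4.42, 2.40 and 4.22 in Atf4AKO. It lies on chromosome 10 from 76531565 to 76557139 (GRCm38). The groups did not overlap, but the gap between them was small and Atf4AKO 2 alone lay far below, so that the log2 change of -0.51 (SE 0.21) was -0.30 without it. Cyp51, the lanosterol demethylase, was at 37.1, 45.9 and 39.5 FPKM in Atf4WT, against 19.1, 19.2 and 39.0 in Atf4AKO. Its values in Atf4AKO 1 and 2 were near one another and far below every other library, while Atf4AKO 3 lay within Atf4WT. The log2 change of -0.72 (SE 0.28; adjusted p by limma 0.50) was -0.06 with Atf4AKO 3 as the only knockout library, and 0.03 without the 3 libraries that held muscle markers.

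Msmo1, the methyl sterol monooxygenase of the demethylation steps after Cyp51, had the smallest p of the members, rank 162 of the 12818 genes. It was at 12.2, 12.7 and 14.1 FPKM in Atf4WT, against 8.22, 7.40 and 10.5 in Atf4AKO, with no overlap. The mean was 1.49 times as high in Atf4WT, and the log2 change was -0.54 (SE 0.15; 95% interval -0.89 to -0.19, adjusted p by limma 0.50, exact permutation p = 0.1). Sc5d, the late sterol desaturase, was at 12.9, 12.0 and 12.8 FPKM in Atf4WT, against 9.33, 8.61 and 11.4 in Atf4AKO, a log2 change of -0.34 (SE 0.13; adjusted p by limma 0.50). On GRCm38, Msmo1 lies on chromosome 8 from 64718123 to 64733578 and Sc5d on chromosome 9 from 42251592 to 42264300. Atf4WT was tight in both genes, and Atf4AKO 3 was again the nearest to it. With Atf4AKO 3 as the only knockout library the changes were -0.28 for Msmo1, -0.24 for Hmgcs1 and -0.13 for Sc5d, in the same direction and smaller.

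The partners of Msmo1 in demethylation did not follow it. Nsdhl, the sterol dehydrogenase, was at 5.40, 9.06 and 7.42 FPKM in Atf4WT, against 11.7, 12.3 and 8.93 in Atf4AKO, a log2 change of 0.54 (SE 0.20; adjusted p by limma 0.50). Atf4WT 2 overlapped Atf4AKO 3, the change was 0.44 without the 3 libraries that held muscle markers, and it stayed positive in all 19 alternatives, from 0.28 to 0.69. Hsd17b7, the keto reductase of the same step, was at 1.87, 2.46 and 1.86 FPKM in Atf4WT, against 1.96, 3.59 and 2.91 in Atf4AKO, with overlapping groups. Its log2 change of 0.30 (SE 0.19) was 0.16 without Atf4AKO 2 and 0.47 without Atf4AKO 1.

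The remaining late enzymes had log2 changes of 0.15 or less, with overlapping groups. Of the exon bases of Tm7sf2, 12.1% are shared with Vps51 on the same strand. Tm7sf2 and Lbr are both sterol reductases, and Lbr also anchors chromatin at the nuclear envelope. Their log2 changes were 0.15 (SE 0.22) and 0.11 (SE 0.12), with 95% intervals of -0.38 to 0.68 and -0.18 to 0.41. Ebp, the sterol isomerase, was at 22.9 ± 2.58 FPKM in Atf4WT, against 24.7 ± 1.09 in Atf4AKO (mean ± SD, n = 3 each). Dhcr7, a reductase of the final steps, was the lowest synthesis gene by level together with Mvd, at 1.62 ± 0.285 and 1.63 ± 0.213 FPKM (mean ± SD, n = 3 each). Its log2 change was 0.006, with a 95% interval of -0.34 to 0.35.

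Atf4AKO 3 was the knockout library that lay least far in the direction of the group difference in 11 of the 20 synthesis genes, against 5 for Atf4AKO 1 and 4 for Atf4AKO 2. Among the 11 were Acat2, Hmgcs1, Sqle, Cyp51, Msmo1 and Sc5d on the lower side and Fdps, Fdft1 and Nsdhl on the higher side. This count was not made over all genes, so it is not shown to be particular to the pathway. Without Atf4AKO 3, the share of all genes at an unadjusted limma p under 0.05 rose from 4.91% to 9.24% lower. The share higher rose from 5.04% to 11.1%. Atf4AKO 1 and 2 shared high muscle and macrophage markers, and what part these had was not tested. With the macrophage marker level as a covariate, Hmgcs1 was at -0.34, Msmo1 at -0.39, Lss at -0.63 and Cyp51 at -0.31 (log2 changes), and with the muscle level they were at -0.36, -0.41, -0.46 and -0.47.

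**Figure D3:**
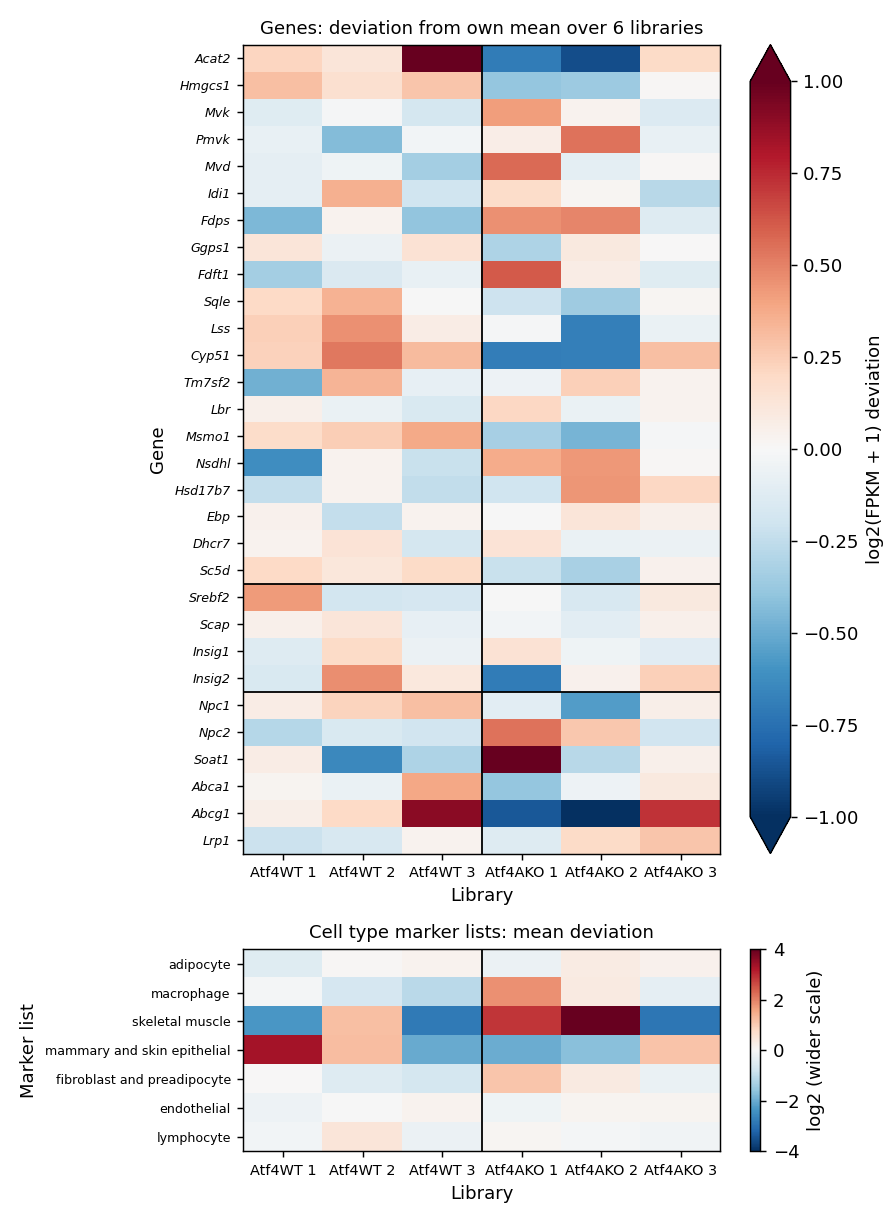
Upper panel, deviation of each tested gene from its own mean over the 6 libraries (log2(FPKM + 1), colours end at 1 in either direction); lower panel, mean deviation of each cell type marker list on a wider scale. Atf4AKO 1 and 2 are alike in many rows (Acat2, Cyp51, Fdps, Nsdhl, Abcg1), while Atf4AKO 3 is often closer to Atf4WT.

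The regulators of the pathway had changes whose 95% intervals all span 0. These intervals were wide for Srebf2 (-0.51 to 0.42) and Insig2 (-0.96 to 0.39), so moderate differences are not resolved. Srebf2, the gene of SREBP-2, was at 8.19, 5.02 and 5.09 FPKM in Atf4WT, against 5.82, 5.15 and 6.32 in Atf4AKO, so that Atf4WT 1 alone stood high and the groups otherwise covered the same range. Scap, its escort, was at 9.42 ± 0.732 and 9.03 ± 0.538 FPKM (mean ± SD, n = 3 each). Insig1, itself a target of SREBP, was at 33.7, 42.3 and 35.4 FPKM in Atf4WT, against 40.8, 35.8 and 34.0 in Atf4AKO. Its log2 change was -0.01 (SE 0.13, 95% interval -0.32 to 0.31). Insig2 had the highest level of the 4, at 82.2, 126 and 98.4 FPKM in Atf4WT, against 55.7, 94.0 and 108 in Atf4AKO, with a log2 change of -0.28 (SE 0.28). Atf4AKO 1 was its lowest library, and the change was -0.0009 without it. The median change of the 4 was -0.05, and the groups overlapped in each.

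Genes of uptake and export from lysosomes were at high levels, and Npc1 and Npc2, which act in one relay, had changes of opposite sign. Npc1, the membrane protein that passes cholesterol out of the lysosome, was at 26.9, 30.003 and 31.7 FPKM in Atf4WT, against 23.7, 16.99 and 26.6 in Atf4AKO. The groups did not overlap, by a margin between 26.6 and 26.9 FPKM, and the log2 change of -0.40 (SE 0.18; adjusted p by limma 0.504) was -0.22 without Atf4AKO 2. Npc2, the soluble lysosomal partner that hands cholesterol to it, was at 103, 113 and 109.7 FPKM in Atf4WT, against 184, 151 and 109.9 in Atf4AKO. The high values were those of Atf4AKO 1 and 2, which also had the most macrophage markers, and Atf4AKO 3 fell within Atf4WT. The log2 change was 0.42 (SE 0.20; adjusted p by limma 0.504), 0.25 without Atf4AKO 1, 0.12 with the macrophage level as a covariate and 0.05 without the 3 libraries that held muscle markers. Lrp1, a large endocytic receptor of lipoproteins, was at 129, 134 and 154 FPKM in Atf4WT, against 137, 171 and 182 in Atf4AKO, second in level to Pmvk, with a log2 change of 0.22 (SE 0.15; adjusted p by limma 0.565) that was 0.34 without Atf4AKO 1 and 0.14 without Atf4AKO 3.

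Storage and efflux genes ranged widely within the groups, and all of them overlapped. Soat1, which esterifies cholesterol, was at 3.91, 1.98 and 2.76 FPKM in Atf4WT, against 9.01, 2.85 and 3.83 in Atf4AKO. Atf4AKO 1, richest in macrophage markers, stood alone above 4 FPKM, and the log2 change of 0.59 (SE 0.38) was 0.18 without it and -0.06 with the macrophage level as a covariate. Abca1, which loads cholesterol on apolipoprotein particles, was at 78.3, 73.2 and 100.7 FPKM in Atf4WT, against 58.4, 73.9 and 82.2 in Atf4AKO, with a log2 change of -0.23 (SE 0.18). That change was -0.095 without Atf4AKO 1 and -0.096 without Atf4WT 3. Abcg1, which exports sterol to high density lipoprotein, was at 28.4, 31.3 and 51.8 FPKM in Atf4WT, against 14.6, 12.8 and 45.6 in Atf4AKO. Atf4AKO 1 and 2 lay below every other library and Atf4AKO 3 was the second highest of the 6. The log2 change of Abcg1 was -0.77 (SE 0.49, 95% interval -1.95 to 0.41) and turned to 0.34 once Atf4AKO 1 and 2 were left out. It was -1.33 without Atf4AKO 3, -0.45 without Atf4AKO 2 and -0.51 without Atf4WT 3. Stard4, a cytosolic sterol carrier, did not pass the filter and was at 0.574, 0.488 and 0.435 FPKM in Atf4WT, against 0.565, 0.370 and 0.378 in Atf4AKO.

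**Figure D4:**
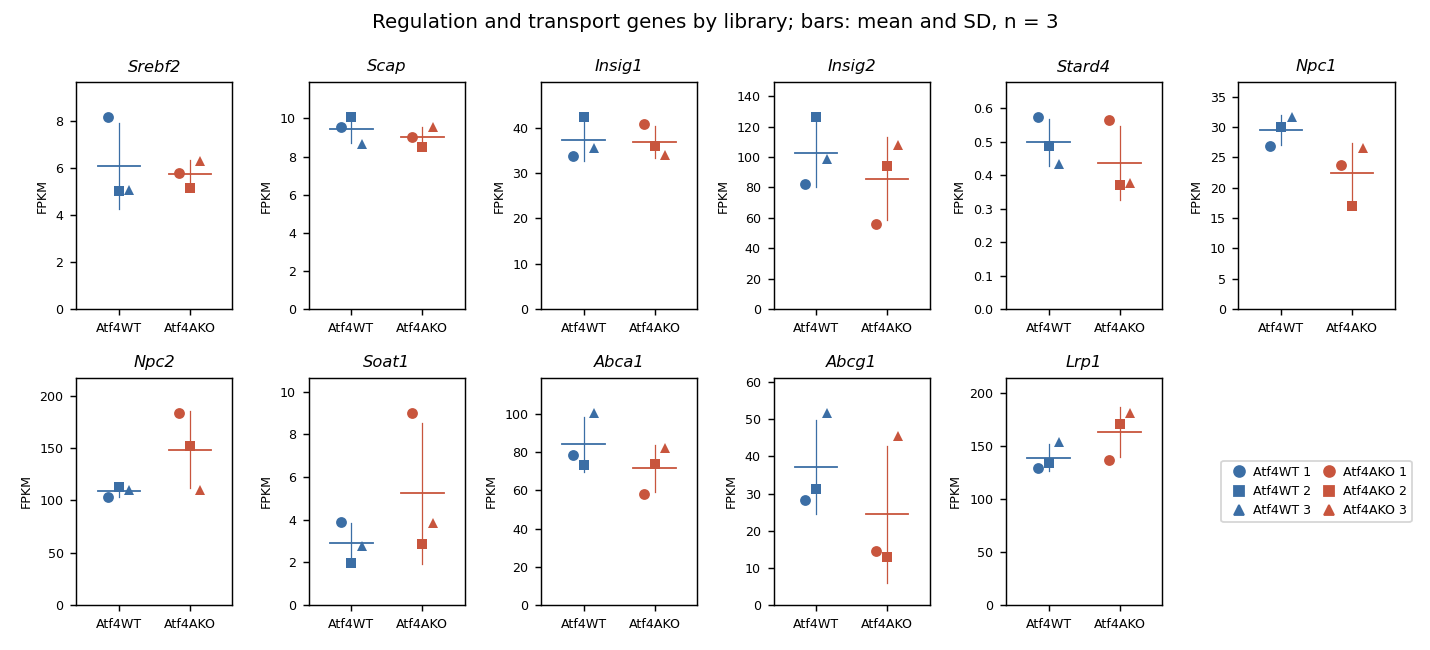
FPKM of the 4 regulators and 7 transport genes in each library, with mean and SD (n = 3 a group), each axis starting at 0. Npc1 is the only one in which the groups do not overlap, and Abcg1, Npc2 and Soat1 are spread widely within Atf4AKO.

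Neighbouring parts of sterol metabolism were read from lists of other genes, in which 0 genes passed over all genes. Over all 12818 tested genes 6487 were positive and 6331 negative in sign, with a median of 0.005. How these lists stand with other settings, or with libraries left out, was not examined. Of 12 SREBP-activation and LXR genes, 8 were negative and 4 positive in sign, with a median of -0.16. Srebf1, the gene of the SREBP that drives fatty acid synthesis, was at 17.6, 14.9 and 12.6 FPKM in Atf4WT, against 11.2, 7.94 and 12.5 in Atf4AKO. The groups were apart only by the step from 12.6 to 12.5 FPKM, and the log2 change was -0.48 (SE 0.20; adjusted p by limma 0.50). With the Atf4WT value first here and below, Nr1h2, the gene of the widely expressed LXR, was at 29.9 ± 2.63 and 35.8 ± 1.07 FPKM. Its Atf4AKO values lay above those of Atf4WT without overlap. Mylip, an LXR target whose product degrades lipoprotein receptors, was at 29.2 ± 3.73 and 21.3 ± 7.09 FPKM with overlap (mean ± SD, n = 3 each).

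In the list of 12 other SREBP targets, most of them fatty acid genes, 10 were positive and 2 negative in sign, with a median of 0.39. Acly, which supplies cytosolic acetyl-CoA to both fatty acids and cholesterol, was at 33.4, 38.6 and 28.0 FPKM in Atf4WT, against 68.3, 52.1 and 45.1 in Atf4AKO. The groups did not overlap, and the log2 change was 0.70 (SE 0.19; adjusted p by limma 0.50). Acss2, which makes acetyl-CoA from acetate, was at 17.1 ± 7.13 and 26.3 ± 4.15 FPKM, and the desaturase gene Fads1 at 10.4 ± 1.63 and 13.3 ± 1.73 FPKM (mean ± SD, n = 3 each).

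Of 18 tested genes of other sterol transport and esterification 12 were positive and 6 negative, with a median of 0.16. Gramd1a, which moves plasma membrane cholesterol to the endoplasmic reticulum, was at 27.3, 21.7 and 36.0 FPKM in Atf4WT, against 20.4, 14.8 and 20.7 in Atf4AKO, without overlap (log2 change -0.57, SE 0.22). Lrpap1, the chaperone of Lrp1, was at 25.0 ± 0.604 and 32.9 ± 5.20 FPKM, higher in Atf4AKO and also without overlap (log2 change 0.37, SE 0.14). Stard5, a sterol carrier, was at 35.4 ± 6.30 and 26.8 ± 2.21 FPKM with overlap (mean ± SD, n = 3 each).

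The 6 genes of sterol oxidation and catabolism were 3 positive and 3 negative in sign (median 0.008), and the genes of smallest p were Cyp27a1, a mitochondrial sterol hydroxylase, at 10.7 ± 2.90 and 14.8 ± 3.04 FPKM, Cyp7b1, an oxysterol hydroxylase, at 0.594 ± 0.119 and 0.955 ± 0.332 FPKM, and Cyp39a1, another, at 2.19 ± 1.37 and 1.29 ± 0.189 FPKM. The 14 genes of the isoprenoid branch, which leads to ubiquinone, dolichol and prenylated proteins, were 6 positive and 8 negative (median -0.03). Dhdds, the dolichol chain synthase subunit, was at 24.4, 25.2 and 27.3 FPKM in Atf4WT, against 14.2, 16.5 and 25.2 in Atf4AKO, with Atf4AKO 3 within Atf4WT as for Cyp51. Dolk, dolichol kinase, and Rabggta, a subunit of the enzyme that prenylates Rab proteins, were at 25.6 ± 2.76 and 22.0 ± 4.71 FPKM and at 2.97 ± 0.5003 and 2.45 ± 0.530 FPKM (mean ± SD, n = 3 each).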

How the data were processed

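Stranded poly(A) libraries of iWAT were made from 3 Atf4WT and 3 Atf4AKO samples, per the labels' protocols, and grouped by sample title. The deposited table holds FPKM computed by the authors, on genome build mm10 per the submitters' processing notes; not given in the sources used here are the aligner, quantifier, annotation and any use of strand in counting. FPKM sums ran from 524158 to 717778 and genes above 0 from 15939 to 16504 a library. Absolute depth is unknown; steps of whole reads in values under 0.15 FPKM put relative depth at 0.933 to 1.19 of the mean. Genes overlapping others, or with near-identical copies, are uncertain.

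Values were taken as log2(FPKM + 1), which understates changes of low genes. The 12818 genes averaging 0.5 FPKM or more entered a limma fit (version 3.58.1, R 4.3.3, eBayes with trend, no covariate), with Benjamini-Hochberg adjustment over all tested genes and a threshold of 0.05; no count model was used. Single genes also had an exact two-sided permutation test (scipy 1.17.1). The fit was also run on simulated data in which 200 genes had changes larger than those of the members. Differences in tissue content were not simulated, so that run does not bear on changes of the size reported here. Promoters were read from RefSeq tables of GRCm38.p6 and exon overlaps from GENCODE M21, the same build. Of 1 marker the row was found under a RefSeq synonym. The members, gene lists and tests were chosen with earlier results of these data known. All members were named; of each other pathway list the 3 genes of smallest p were. Some genes of the pathway are not reported here. Alternatives changed the pseudocount, filter, scaling, variance trend, block, covariates and libraries.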

Additional observations from a re-analysis of the deposited data

How the results depend on the processing

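With only 3 libraries a group and unknown absolute depth, small differences and those of genes under about 1 FPKM could not be resolved. No member was called in any of the 19 alternatives, and the lowest adjusted p was 0.094. Of the 30 members 13 kept the direction of their change in all 19. Correlations of same-numbered deviations were 0.08, 0.40 and 0.07, too few values to settle whether replicate numbers pair the libraries. Most libraries correlated best with their own number, but Atf4WT 1 and Atf4AKO 3 did so with each other (0.19). With the replicate number as a block 0 genes were called higher, against 2. That count was 1 with the muscle covariate and 0 with the macrophage covariate, without Atf4AKO 1 and 2 together, and without the 3 libraries with muscle markers (added later, like all counts of members by overlap or unadjusted p). Leaving out 1 library at a time gave 0 to 3 genes higher and 0 to 2 lower, 0 to 4 members higher and 2 to 9 lower at an unadjusted p under 0.05, 1 to 6 members without overlap higher and 5 to 9 lower (the highest counts of members all without Atf4AKO 3; over all genes 2.24 to 11.1% higher and 1.66 to 9.24% lower by p, and 9.80 to 20.7% higher and 9.83 to 20.6% lower without overlap), and medians of -0.017 to 0.097 for synthesis, -0.10 to 0.10 for transport and -0.13 to -0.002 for regulation. The fewer libraries there are, the less often groups overlap.

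The other settings moved these. The number of members higher at an unadjusted p under 0.05 was 1 without a filter, 1 at equal sums and 1 with the macrophage covariate, and 0 with the muscle or epithelial covariate and in both settings without several libraries; the number lower was 2 with the muscle covariate, 2 with the epithelial covariate, 0 with the macrophage covariate and 0 in those same settings. It went up to 7 at equal sums (with 6 lower without overlap, against 13.9% of all genes), 6 with the replicate block (and 3 higher) and 6 at a mean of at least 1 FPKM. The shares of all genes moved too. By p, 1.92% were lower and 1.89% higher with the muscle covariate, and 2.08% and 2.13% with the epithelial covariate. With the macrophage covariate they were 1.91% and 2.71%, and with the replicate block 6.63% and 8.73%. At a mean of at least 1 FPKM they were 5.03% and 5.24%, without a filter 3.95% and 4.33%, and at equal sums 7.997% and 2.27%. Scaling to equal sums shifted the median of all genes by -0.12, and the medians were then -0.061 for synthesis, -0.15 for transport and -0.18 for regulation. The synthesis median was -0.048 without Atf4AKO 1 and 2 (transport 0.18), 0.0097 without the muscle libraries, -0.021 with the muscle covariate and -0.040 with the macrophage covariate.

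Changes that turned sign, none of them called, were these log2 values, and the cause was not tested. At equal sums: Lbr -0.017, Ebp -0.034, Dhcr7 -0.087. Without Atf4AKO 1 and 2: Mvk -0.037, Dhcr7 -0.058, Srebf2 0.072, Scap 0.022, Insig2 0.10, Abcg1 0.34. Without the muscle libraries: Pmvk -0.021, Cyp51 0.025, Scap 0.068, Insig2 0.26, Abcg1 0.24. With the muscle covariate: Dhcr7 -0.056, Srebf2 0.059. With the epithelial covariate: Srebf2 0.10. With the macrophage covariate: Mvk -0.058, Mvd -0.0073, Ggps1 0.025, Lbr -0.022, Dhcr7 -0.13, Insig2 0.23, Soat1 -0.058, Abca1 0.057. Leaving out 1 library at a time gave -0.056 to 0.36 for Tm7sf2, -0.15 to 0.16 for Srebf2, -0.16 to 0.12 for Idi1, -0.080 to 0.088 for Insig1 and -0.082 to 0.076 for Dhcr7.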
